A study of Homo sapiens with 4 samples.

Results

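The measurements below concern the histone genes of LoVo cells, a line from a human colon adenocarcinoma, read in 4 RNA sequencing libraries. The rule reads gene symbols and no measured value. The genes are the protein-coding genes of the GENCODE version 29 annotation whose symbols begin with HIST1H, HIST2H, HIST3H or HIST4H, together with H1F0, H2AFX, H2AFZ, H2AFV, H2AFY, H2AFJ, H3F3A and H3F3B. The rule gave 79 genes of the 58825 Ensembl genes counted, 71 in the histone clusters and 8 outside them, called variant genes here. The study compared 2 libraries of MET+ cells with 2 libraries of MET-KO cells. MET+ cells have the genotype WT and carry GFPCTR in their label, and MET-KO cells have the genotype MET knock out and carry METKOCTR. All libraries came from cells kept in DMEM with 10% fetal bovine serum and antibiotics. The knockout was made with CRISPR/Cas9, puromycin selection and manual picking of single clones, chosen by western blot. The sources used here do not say whether both MET-KO libraries stem from 1 clone, so loss of MET and differences between clones cannot be told apart. The replicates are labelled biological, and nothing says that they came from separate cultures, so the p-values measure only the spread between these libraries.

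Histones package DNA. Pairs of H2A, H2B, H3 and H4 form the core around which DNA is wrapped, and the linker histone H1 binds where DNA enters and leaves that core. The genes of the clusters are mostly intronless and are transcribed mainly during DNA replication. Their mRNA usually ends in a short stem-loop, bound by the stem-loop binding protein SLBP, in place of a poly(A) tail. Some of them also give longer, polyadenylated mRNA that ends beyond the stem-loop, a form known from cells that divide less or differentiate. Variant histones are encoded by genes outside the clusters, and most have polyadenylated mRNA and are made throughout the cell cycle. Among the variant genes here, H2AFX also has an annotated stem-loop. The libraries were made with a QuantSeq 3′ kit, which starts cDNA synthesis from an oligo(dT) primer. By this design the counts are read as polyadenylated mRNA. The files do not show where the reads end, and priming inside a transcript was not tested.

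The stem-loop can be read in the annotated transcripts. It was searched as a run of 16 bases on the transcript strand, after the stop codon, and was present in 32 cluster genes and in H2AFX. Among 19765 other protein-coding genes, 10 (0.0506%) held it. Of the 71 cluster genes, 42 have at most 100 annotated bases after the stop codon, and some, such as HIST1H1C, have none. A stem-loop beyond an annotated end could not be read, so its absence here does not mean that a gene lacks it. The stem-loops of 7 genes are shown, chosen because these genes were higher, lower or not called in MET-KO cells and cover H2A, H2B, H3 and H4. The sequences are from GENCODE version 29 transcripts on GRCh38, 5′ to 3′, and capitals mark both sides of the stem.

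HIST1H2AG (chr6:27133510-27133535, plus strand): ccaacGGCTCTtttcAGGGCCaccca
HIST1H2BD (chr6:26158582-26158607, plus strand): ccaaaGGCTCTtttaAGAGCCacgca
HIST2H2BE (chr1:149886183-149886208, minus strand): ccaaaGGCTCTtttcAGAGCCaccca
HIST1H2BH (chr6:26252050-26252075, plus strand): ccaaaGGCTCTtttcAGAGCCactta
HIST1H3H (chr6:27810511-27810536, plus strand): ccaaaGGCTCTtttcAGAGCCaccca
HIST1H4H (chr6:26285126-26285151, minus strand): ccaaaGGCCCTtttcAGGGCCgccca
HIST1H4J (chr6:27824454-27824479, plus strand): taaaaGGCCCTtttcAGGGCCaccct

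The stem was not the same in all genes. The form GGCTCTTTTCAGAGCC was found in 6 H2A, 8 H2B and 3 H3 genes, while the 8 H4 genes with a stem-loop had GGCCCT on the left side, 5 of them as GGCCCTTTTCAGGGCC and 3 as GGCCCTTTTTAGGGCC. H2AFX, an H2A gene, shared that left side (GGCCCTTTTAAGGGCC). HIST2H2BE, which was higher in MET-KO cells, and HIST1H2BH, which was lower, had the same 16 bases. The other signal that matters for these libraries is AATAAA, the usual poly(A) signal. It stood within the last 40 bases of a transcript in 24 of the 79 genes, 20 of them in the clusters, against 69.3% of the 19765 other protein-coding genes. Short annotated ends limit this comparison too. Over 100 bases after the stop codon were annotated in 37 of the 79 genes, against 94.6% of the others. Windows of 30 bases are shown for 5 genes, with the signal in capitals.

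HIST1H3H (chr6:27811268-27811297, plus strand): tgtatgactaAATAAAatctgtataatccc
HIST2H2BE (chr1:149884463-149884492, minus strand): tattgttattAATAAAgttaccaattaatt
HIST1H2BH (chr6:26253679-26253708, plus strand): ataattttttAATAAAaggtttttttaatg
HIST1H4J (chr6:27824442-27824471, plus strand): cctttctatcAATAAAaggcccttttcagg
H2AFZ (chr4:99948088-99948117, minus strand): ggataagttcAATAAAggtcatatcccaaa

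In HIST1H3H, HIST2H2BE and HIST1H2BH the annotated transcript ran 769, 1729 and 1640 bases beyond the stem-loop before it ended. In HIST1H4J the signal lay directly before the stem-loop, and the transcript ended 6 bases after it. H2AFZ, a variant gene, had no stem-loop.

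The libraries held 8429142 and 10286552 counts in MET+ cells and 10137583 and 10228991 counts in MET-KO cells. Levels are given as CPM, the reads of a gene scaled to a common library size. MET had 2794 and 3272 reads in MET+ and 861 and 965 reads in MET-KO libraries, 3.89 times fewer on the CPM scale in MET-KO cells, as the labels say. Replicates differed by more than sampling noise (chi-square per degree of freedom 5.45 for MET+ and 4.86 for MET-KO) and were kept apart. Of 11 colon epithelium markers 10 were tested, with KRT20 and CDX2 called higher, KRT8 not called and the other 7 lower. EPCAM (-1.11), CDH1 (-0.88), KRT18 (-0.30) and KRT19 (-0.29) fell on the log2 scale and kept at least 807 reads in each library. VIL1 had 43 and 58 reads in MET+ against 3 and 3 in MET-KO libraries and LGALS4 89 and 107 against 1 and 1. CEACAM5 had no read in MET-KO cells, KRT20 none in MET+ cells and CDX1 none in any. Summed levels of other cell types' markers also moved. The 5 fibroblast markers held 1.54 to 2.05 CPM in the MET+ group against 3.63 to 4.24 CPM in the MET-KO group, the 4 leukocyte markers 4.59 to 8.11 and 0.0921 to 0.294 CPM, and the 3 endothelial markers at most 0.924 CPM. At 0 in all libraries were 2 of the fibroblast markers (COL1A2 and DCN), 3 of the leukocyte markers (PTPRC and CD3E among them) and 1 of the endothelial markers (CDH5). The leukocyte sum is thus the reads of 1 gene, called lower in MET-KO cells (log2 fold change -4.98). Mitochondrial genes took 12.4% and 14.2% of the counts in MET+ and 15.4% and 14.9% in MET-KO libraries. The part of these differences in the histone results was not tested.

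Reads came from few of the cluster genes and from every variant gene. No library had a read for 23 of the 79 genes, and 19 more had at most 3 reads in any library. A count of 0 allows up to 3 counts, which is 0.292 to 0.356 CPM here, counting error only. The 27 genes that passed the filter on low counts, 19 cluster and 8 variant genes, were tested together with all other genes. Of these, 11 rose in MET-KO cells and 10 fell at an adjusted p below 0.05 (edgeR quasi-likelihood test, Benjamini-Hochberg adjustment over 13801 genes), and 6 were not called. Over all tested genes 54.1% were called, 27.2% higher and 26.9% lower, so a call by itself was common in this comparison. All 11 higher genes were cluster genes, while the lower ones were 5 cluster and 5 variant genes. Groups did not overlap in 24 of the 27 genes, against 75.6% of all tested genes. With DESeq2's Wald test 8 were called higher and 8 lower, and without MET-KO replicate 1 the higher calls dropped to 7. Only 20 genes had at least 10 reads in every library. The other 7 of the tested genes (HIST1H4H, HIST1H4E, HIST1H2BC, HIST1H2BJ, HIST1H2AJ, HIST1H4J and H3F3A) passed the filter through the group in which they were higher, so their calls are given as values and not counted as support.

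**Figure D1:**
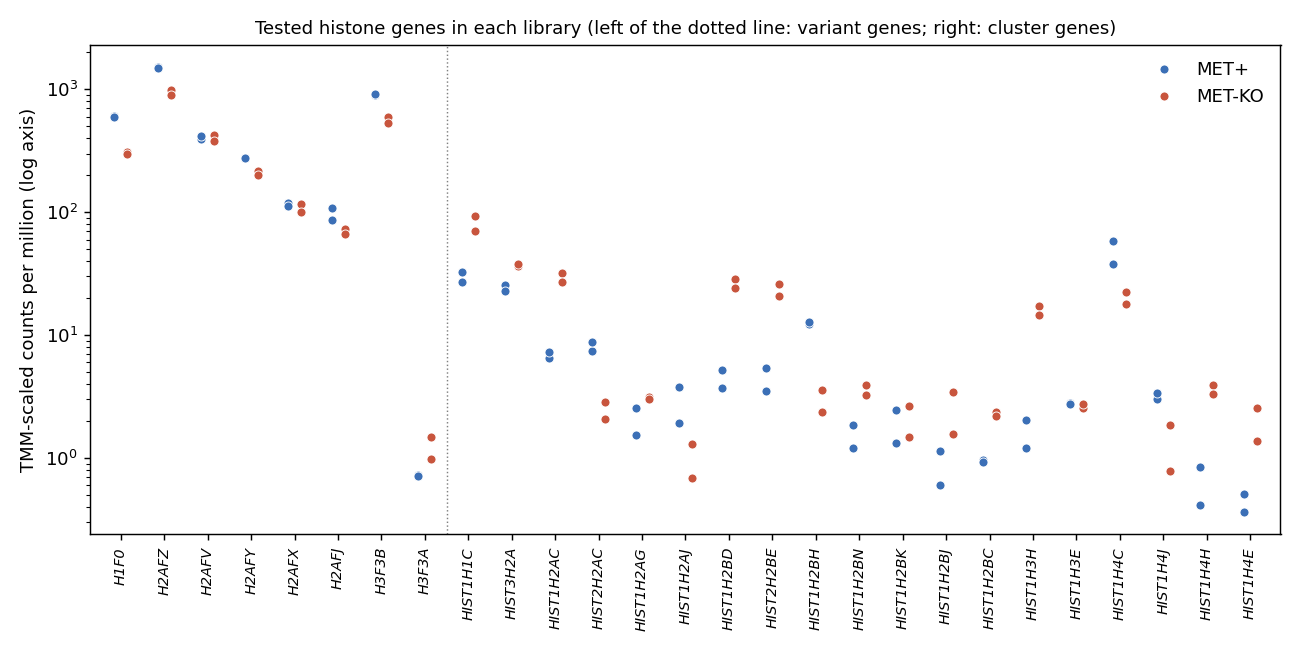
CPM after TMM scaling (log axis) for the 27 tested histone genes, with 1 point per library, MET+ in blue and MET-KO in red. The variant genes, left of the dotted line, lie above 66 CPM, except H3F3A, and the cluster genes, right of it, at or below 92.6 CPM. HIST1H3H has the highest log2 fold change (3.25) and HIST1H2BH the lowest (-2.06).

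As a sum, the cluster genes were higher and the variant genes lower in MET-KO cells. The 71 cluster genes together held 150 and 177 CPM for MET+ against 289 and 247 CPM for MET-KO libraries, 163 ± 19.3 against 268 ± 29.8 CPM (SD, n = 2 each), a ratio of 1.64. The sum of the 8 variant genes was 3915 ± 8.78 CPM for MET+ against 2608 ± 173 CPM for MET-KO libraries (SD, n = 2 per group), a ratio of 0.67. Groups did not overlap in either sum. No test was made on sums, since an exact permutation test of 2 against 2 libraries cannot give a p below 0.333. Cluster genes made up 3.69% and 4.32% of the histone reads in MET+ and 9.59% and 9.05% in MET-KO libraries. In bulk RNA, a change in the share of cells that hold a transcript and a change in RNA per cell cannot be told apart.

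The sums of the histone types did not move alike. Summed over their cluster genes, H3 went from 5.51 ± 0.621 to 19.8 ± 2.09 CPM, H1 from 30.3 ± 3.57 to 81.3 ± 16 CPM, H2B from 28.4 ± 0.571 to 65.3 ± 5.92 CPM and H2A from 45.6 ± 0.169 to 74.4 ± 1.96 CPM (SD, n = 2 each). H4 went the other way, from 53.6 ± 14.4 to 27.5 ± 3.84 CPM. A few genes carried most of these sums. The H4 fall was that of HIST1H4C. It held 315 of 359 and 569 of 621 H4 reads in MET+ and 229 of 308 and 195 of 269 in MET-KO libraries. The other H4 genes together were not lower in MET-KO cells. HIST1H1C held 944 of 945 and 758 of 760 H1 reads in MET-KO libraries. HIST1H3H held 10 of 42 and 20 of 58 H3 reads in MET+ and 176 of 217 and 159 of 199 in MET-KO libraries. HIST1H4C held 25.4% and 33.0% of the cluster reads in MET+ and 7.76% and 7.26% in MET-KO libraries, and HIST1H1C 18.2% and 18.5% against 32.0% and 28.2%. Without HIST1H1C the ratio of the cluster sum was 1.40, and without HIST1H4C it was 2.15.

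**Figure D2:**
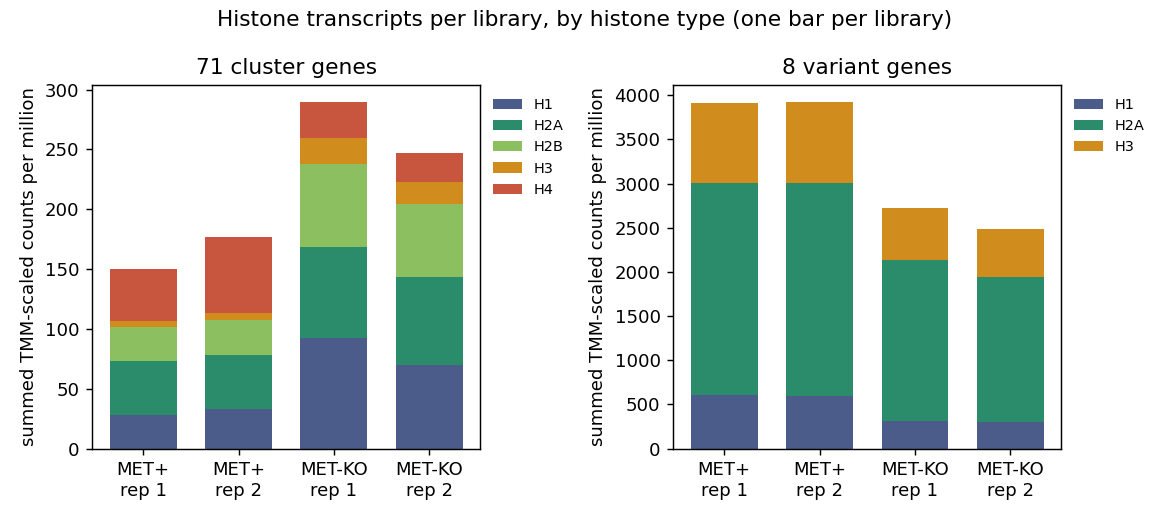
Summed CPM after TMM scaling in each library (1 bar per library), stacked by histone type, for the 71 cluster genes (left) and the 8 variant genes (right). The cluster bars reach 150 and 177 CPM for MET+ against 289 and 247 CPM for MET-KO libraries, with the H4 part smaller in MET-KO, and the variant bars are lower in both MET-KO libraries.

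The linker histones moved in opposite directions. Positions below are those of GENCODE version 29 on GRCh38. HIST1H1C (ENSG00000187837, chromosome 6, 26055787 to 26056428), which encodes linker histone H1.2, had 225 and 319 reads in MET+ and 944 and 758 reads in MET-KO libraries. It rose from 30.0 ± 3.93 to 81.2 ± 16.1 CPM (log2 fold change 1.43, SE 0.13, adjusted p = 2.1e-11, edgeR with Benjamini-Hochberg adjustment). H1F0 (ENSG00000189060, chromosome 22, 37805093 to 37807436), which encodes H1.0, a linker histone known to accumulate in cells that have stopped dividing, had 5028 and 5763 reads in MET+ and 3135 and 3253 reads in MET-KO libraries. It fell from 600 ± 11.4 to 303 ± 5.54 CPM (log2 fold change -0.98, SE 0.09, adjusted p = 3e-11, the same edgeR test). Neither gene's groups overlapped. The other 5 cluster H1 genes had at most 2 reads in any library.

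Of the cluster H2A genes, HIST1H2AC (ENSG00000180573, chromosome 6, 26124145 to 26139116) had 54 and 71 reads in MET+ and 326 and 293 reads in MET-KO libraries. Both MET-KO libraries were high, and the level rose 4.25-fold (log2 fold change 2.09, SE 0.18, adjusted p = 9.15e-12, edgeR with Benjamini-Hochberg adjustment). HIST3H2A, in the small cluster on the long arm of chromosome 1, had 211 and 223 reads in MET+ and 374 and 409 in MET-KO libraries, a log2 fold change of 0.62 (SE 0.13). HIST2H2AC (ENSG00000184260, chromosome 1, 149886975 to 149887364) went down, with 62 and 86 reads in MET+ and 21 and 31 in MET-KO libraries (log2 fold change -1.73, SE 0.31, adjusted p = 1.6e-05, edgeR as above). Its groups did not overlap. HIST1H2AJ was sparse, with 16 and 37 reads in MET+ and 7 and 14 in MET-KO libraries (log2 fold change -1.53, SE 0.49, adjusted p = 0.00898, edgeR), and its call was lost without MET+ replicate 2 (adjusted p = 0.245), without MET-KO replicate 1 (0.16) and with DESeq2 (0.0671). HIST1H2AG was not called, with 21 and 15 reads against 32 and 33.

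Among H2B genes the changes were large in both directions. HIST1H2BD (ENSG00000158373, chromosome 6, 26158146 to 26171349) had 43 and 36 reads in MET+ and 293 and 263 reads in MET-KO libraries, 6.0-fold more (log2 fold change 2.58, SE 0.21, adjusted p = 1.27e-12, edgeR with Benjamini-Hochberg adjustment). HIST2H2BE (ENSG00000184678, chromosome 1, 149884459 to 149886652) had 45 and 34 reads in MET+ and 266 and 227 in MET-KO libraries, 5.31-fold more (log2 fold change 2.41, SE 0.22, adjusted p = 2.72e-11, the same edgeR test). HIST1H2BH (ENSG00000275713, chromosome 6, 26251651 to 26253710), with the same stem-loop as HIST2H2BE, had 12.2 and 12.7 CPM in MET+ and only 2.35 and 3.59 CPM in MET-KO libraries. It was 4.16-fold lower in MET-KO cells (log2 fold change -2.06, SE 0.27, adjusted p = 5.06e-08, edgeR as above). In all 3 genes the groups were far apart. HIST1H2BC, HIST1H2BN and HIST1H2BJ were called higher on few reads. HIST1H2BC had 8 and 9 reads against 24 and 24 (log2 fold change 1.26, SE 0.50), and its call was lost whichever library was left out (adjusted p = 0.0854 to 0.216, edgeR) and with DESeq2 (0.154). HIST1H2BN had 10 and 18 reads against 33 and 43 (log2 fold change 1.21, SE 0.42), a call lost without MET+ replicate 1 (adjusted p = 0.0791, edgeR), MET-KO replicate 1 (0.0552) or MET-KO replicate 2 (0.167) and with DESeq2 (0.081). Its exons overlap those of HIST1H2AL on the same strand and HIST1H2AK on the other, so its reads are uncertain. HIST1H2BJ had 5 and 11 reads against 35 and 17 (log2 fold change 1.48, SE 0.53), lost without MET+ replicate 1 (adjusted p = 0.109, edgeR) or MET-KO replicate 1 (0.487, with a log2 fold change of 0.82) and with DESeq2 (0.101). HIST1H2BK, with 11 and 24 reads against 15 and 29, was not called. Its groups overlapped, and its sign turned without MET+ replicate 1 or MET-KO replicate 2.

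HIST1H3H (ENSG00000278828, chromosome 6, 27810064 to 27811300), an H3 gene of the HIST1 cluster, had the widest log2 difference among the 27 tested histone genes. It held 10 and 20 reads in MET+ and 176 and 159 reads in MET-KO libraries, 1.63 ± 0.597 against 15.9 ± 1.85 CPM (SD, n = 2 each). The log2 fold change was 3.25 (SE 0.28, adjusted p = 9.17e-12, edgeR with Benjamini-Hochberg adjustment). Leaving out a library in turn gave 2.95 to 3.70. HIST1H3E, also an H3 gene with a long annotated 3′ end, had 23 and 27 reads in MET+ and 26 and 30 in MET-KO libraries and was not called (log2 fold change -0.062, SE 0.39). Its sign turned when libraries were scaled by their totals alone.

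The 4 tested H4 genes encode the same protein, and only 1 of them, HIST1H4C, had at least 10 reads in every library. HIST1H4C (ENSG00000197061, chromosome 6, 26103876 to 26104310), the H4 gene with the most reads, had 315 and 569 reads in MET+ and 229 and 195 in MET-KO libraries. Its MET+ libraries lay well apart, at 38.1 and 58.4 CPM, yet both were above the MET-KO values of 22.5 and 18.0 CPM. The log2 fold change was -1.26 (SE 0.16, adjusted p = 2.12e-08, edgeR with Benjamini-Hochberg adjustment) and -0.92 without MET+ replicate 2. HIST1H4J had 25 and 33 reads against 8 and 20 (log2 fold change -1.27, SE 0.46), a call lost without MET+ replicate 2 (adjusted p = 0.0665, edgeR) or MET-KO replicate 1 (0.294, with a log2 fold change of -0.80) and with DESeq2 (0.0961). Without MET-KO replicate 2 its log2 fold change was -2.01. HIST1H4H had 7 and 4 reads in MET+ and 40 and 36 reads in MET-KO libraries (log2 fold change 2.53, SE 0.51, adjusted p = 8.36e-05, edgeR). HIST1H4E had 3 and 5 reads against 26 and 15 (log2 fold change 2.11, SE 0.61, adjusted p = 0.00399, edgeR), and its call was lost without MET-KO replicate 1 (0.207). The annotated transcripts of HIST1H4H and HIST1H4E reach 1712 and 1082 bases past the stop codon, and those of HIST1H4C and HIST1H4J at most 51. Since HIST1H4H, HIST1H4E and HIST1H4J passed the filter through their higher group, nothing is read from their directions.

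Of the variant genes outside the clusters, 5 fell and none rose. H2AFZ (ENSG00000164032, chromosome 4, 99948086 to 99950388), which encodes H2A.Z, a variant placed at promoters and enhancers, had 12621 and 14609 reads in MET+ and 10174 and 9768 in MET-KO libraries. It fell from 1512 ± 18.1 to 949 ± 69.3 CPM (log2 fold change -0.67, SE 0.09, adjusted p = 2.43e-07, edgeR with Benjamini-Hochberg adjustment). H2AFJ (H2A.J) had 712 and 1062 reads in MET+ and 742 and 721 in MET-KO libraries, a log2 fold change of -0.49 (SE 0.11), which was -0.31 without MET+ replicate 2 and -0.18 relative to the median of its chromosome, 12. H2AFY, which encodes macroH2A1, had 2293 and 2698 reads against 2228 and 2203 (log2 fold change -0.40, SE 0.09). The median log2 fold change of the other tested genes of its chromosome, 5, was -0.43, and relative to that median H2AFY stood at 0.037. H2AFV, which encodes a second form of H2A.Z, and H2AFX, whose protein is phosphorylated at DNA breaks, were not called. H2AFV had 393 and 417 CPM for MET+ against 423 and 380 CPM for MET-KO libraries, so its groups overlapped (log2 fold change -0.013, SE 0.09). Relative to the median of its chromosome, 7, which was 0.50, it stood at -0.52. H2AFX had 118 and 111 CPM against 117 and 100 CPM (log2 fold change -0.079, SE 0.10), and the sign of both small values turned when libraries were scaled by their totals alone.

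The genes H3F3A and H3F3B encode the same protein, H3.3, which is placed in chromatin outside replication. H3F3B (ENSG00000132475, chromosome 17, 75776434 to 75785893) had 7459 and 8919 reads in MET+ and 6038 and 5814 in MET-KO libraries, and fell from 908 ± 9.97 to 564 ± 40.1 CPM (log2 fold change -0.69, SE 0.09, adjusted p = 1.02e-07, edgeR with Benjamini-Hochberg adjustment). It overlaps UNK, with 164 to 258 reads, on the other strand. H3F3A had only 6 and 7 reads in MET+ and 10 and 16 in MET-KO libraries and was not called. It has 6 annotated pseudogenes, which together held 6 to 19 reads, and how reads that match several places were counted is not given in the sources used here, so its low level is uncertain. H2AFZ also has 6 annotated pseudogenes, with at most 9 reads together in a library.

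**Figure D3:**
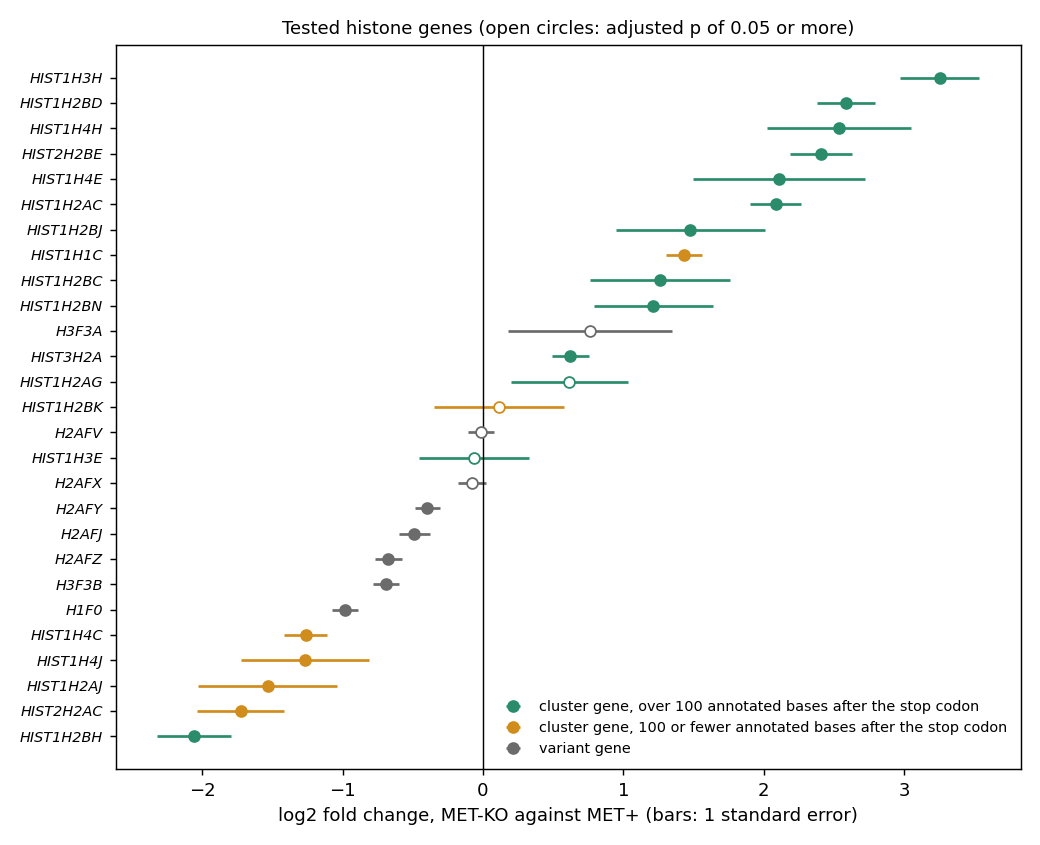
Log2 fold change of MET-KO against MET+ for each of the 27 tested histone genes, with bars of 1 standard error, ordered by value. Filled circles passed an adjusted p of 0.05 and open circles did not. Green marks cluster genes with over 100 annotated bases after the stop codon, and variant genes (grey) lie between -0.98 and 0.76.

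The tested cluster genes differed in how far their annotated transcripts reach past the stop codon. Splitting the 71 cluster genes at 100 bases, a limit set after the counts were seen, gave 29 with a longer and 42 with a shorter end. Of the 13 tested genes with a longer end, 10 were higher in MET-KO cells, 1 was lower (HIST1H2BH) and 2 were not called (HIST1H2AG and HIST1H3E). Of the 6 tested with a shorter end, 1 was higher (HIST1H1C), 4 were lower (HIST1H2AJ, HIST2H2AC, HIST1H4C and HIST1H4J) and 1 was not called (HIST1H2BK). These counts hold 6 genes that passed the filter through their higher group (HIST1H2BC, HIST1H2BJ, HIST1H4E and HIST1H4H with a longer end, HIST1H2AJ and HIST1H4J with a shorter one). Without them 6 of 9 genes with a longer end were higher and 1 was lower, and of 4 with a shorter end 1 was higher and 2 were lower. The shares over all tested genes were 27.2% higher and 26.9% lower, with 54.1% called. The 4 genes with a shorter end are too few to set against these shares. Summed, the genes with a longer end went from 65.6 ± 2.38 to 158 ± 12.9 CPM, and those with a shorter end from 97.8 ± 21.7 to 110 ± 16.9 CPM (SD, n = 2 each). The first pair of sums did not overlap and the second did. HIST1H1C set the direction of the second, which without it went from 67.8 ± 17.8 to 28.7 ± 0.805 CPM. No test was made, since the split was chosen on these data. HIST1H1C, HIST1H2AJ, HIST2H2AC and HIST1H2BK have annotated transcripts that stop with the stop codon itself. Reads that begin beyond the gene end used in counting are not counted for that gene. The annotation release used in counting is not given, so its gene ends may differ from those used for the split. Whether the genes with shorter models have longer transcripts in these cells was not tested.

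**Figure D4:**
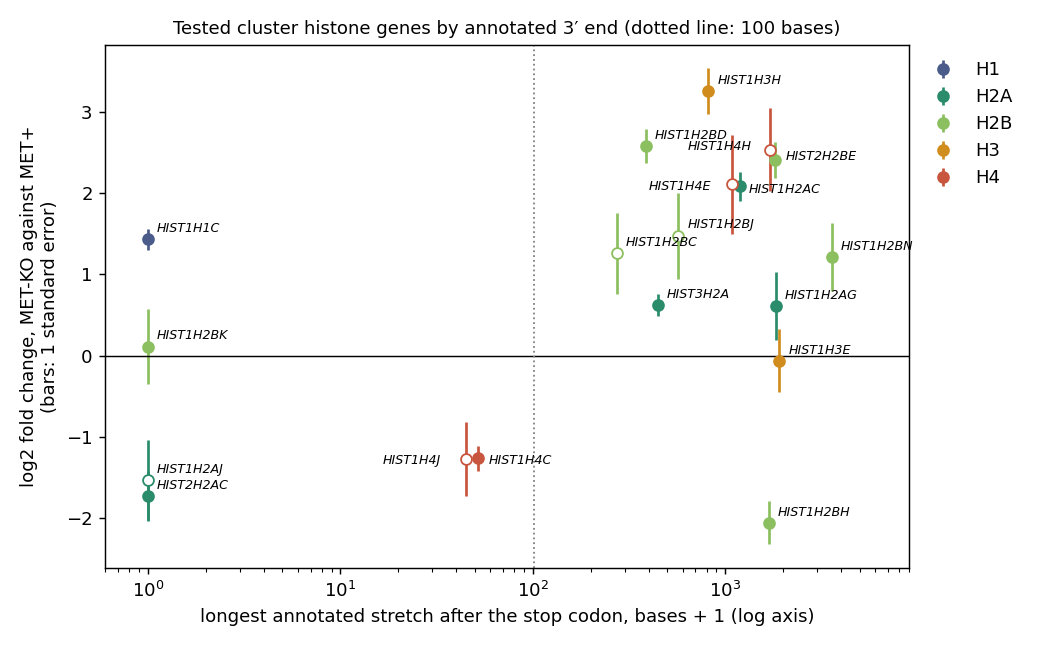
Log2 fold change of MET-KO against MET+ (bars, 1 standard error) for the 19 tested cluster genes, by the longest annotated stretch after the stop codon (bases plus 1, log axis) and coloured by histone type. The dotted line marks 100 bases. Open circles mark the 6 genes with under 10 reads in a library. Of the filled circles, 6 of 9 right of the line were called higher, with HIST1H2BH well below 0, and left of it HIST1H1C was called higher and 2 genes lower. Among all tested genes 27.2% were called higher and 26.9% lower.

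Many H2A and H2B genes stand head to head and share the DNA between their starts. Distances below are between GENCODE starts. HIST2H2BE and HIST2H2AC, 323 bases apart on chromosome 1, changed in opposite directions, with log2 fold changes of 2.41 and -1.73. HIST1H2BC and HIST1H2AC, 219 bases apart on chromosome 6, were both higher (1.26 and 2.09). In the pair of HIST1H2BJ and HIST1H2AG, 292 bases apart, the former was called higher (1.48) and the latter was not called (0.61). HIST1H2BC and HIST1H2BJ passed the filter through their higher group, so nothing is read from the pairs that hold them. Most of the region between HIST2H2BE and HIST2H2AC is shown because its genes diverged. The stretch begins short of the GENCODE start of HIST2H2AC and runs into the start of HIST2H2BE. The RefSeq start of HIST2H2AC, whose promoter spans chr1:149886668-149886967, lies inside the stretch. It was read from the RefSeq promoter of HIST2H2BE (250 bases before to 50 after the start, GRCh38.p14), 5′ to 3′ on the HIST2H2BE strand. Capitals mark 3 motifs searched on both strands, which do not overlap here. They are the TATA box, written TATAAA, the CCAAT box, and the octamer, written ATTTGCAT.

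HIST2H2BE promoter (chr1:149886633-149886932, minus strand): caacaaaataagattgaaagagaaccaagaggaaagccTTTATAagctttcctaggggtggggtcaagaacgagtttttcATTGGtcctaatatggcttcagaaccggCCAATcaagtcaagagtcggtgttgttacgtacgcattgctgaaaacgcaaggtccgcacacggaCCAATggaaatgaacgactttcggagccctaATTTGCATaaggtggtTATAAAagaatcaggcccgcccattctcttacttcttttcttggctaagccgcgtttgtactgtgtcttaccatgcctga

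The stretch holds all 3 motifs, with a TATAAA near each end. RefSeq promoters were matched for 68 of the 79 genes, 61 of them in the clusters. The octamer was in 26 of the 61 cluster promoters, 14 of 18 H2B and 12 of 43 others, against 1.80% of 27305 promoters of the same length. Windows of head-to-head genes can overlap, so the same octamer can count for both genes. HIST1H3D was given the same window as HIST1H2AD. TATAAA was in 40 and CCAAT in 51 of the 61, against 12.0% and 35.7% of all promoters. The octamer was found in 4 of the 11 cluster promoters of genes called higher and in 3 of the 4 of genes called lower. No promoter was matched for HIST1H4C, also called lower. Nothing is read from this split, since both groups hold genes that passed the filter through their higher group. These genes are HIST1H2BC, HIST1H2BJ, HIST1H4E and HIST1H4H among the higher, and HIST1H2AJ and HIST1H4J among the lower. All motif counts are matches of letters, and say nothing of binding.

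The neighbours of the histone genes were read beside them. The HIST1 genes lie between 25726132 and 27893843 on chromosome 6 (GRCh38), where 9 of the 16 tested histone genes were higher and 4 lower. Over all tested genes 27.2% were higher and 26.9% lower. Only 10 of the 16 had at least 10 reads in every library. HIST1H2BC, HIST1H2BJ, HIST1H4E and HIST1H4H, among the higher, and HIST1H2AJ and HIST1H4J, among the lower, passed the filter through their higher group. The 21 other tested genes of the same stretch had a median log2 fold change of 0.11, with 7 higher and 5 lower and values from -1.07 to 1.79. The medians of chromosomes 6 and 1, which hold the tested cluster genes, were 0.077 and 0.059, against 0.0073 over all tested genes. Relative to the median of its chromosome, 20 of the 21 called histone genes kept the sign of their change. The exception was H2AFY. The 21 include the genes named above that passed the filter through their higher group.

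Genes that transcribe and process histone mRNA were mostly not called. Of 20 such genes, all tested, 1 was higher and 5 lower, and the median log2 fold change was -0.10, against 54.1% called and a median of 0.0073 over all genes. NPAT, the coactivator of histone gene transcription, had 59 and 68 reads in MET+ and 120 and 165 in MET-KO libraries (log2 fold change 0.94, SE 0.22, adjusted p = 0.000441, edgeR with Benjamini-Hochberg adjustment). SLBP, which binds the stem-loop, had 50.6 and 44.5 CPM against 50.6 and 51.5 CPM (log2 fold change 0.10, SE 0.11) and was not called. LSM11, a part of the U7 particle that directs cleavage after the stem-loop, had 161 and 189 reads in MET+ and 57 and 73 in MET-KO libraries. It fell by 1.65 on the log2 scale (SE 0.20, adjusted p = 1.47e-08, edgeR as above), and by 1.22 relative to the median of chromosome 5. The transcription factors YY1 (-0.76) and E2F1 (-0.55) and the cleavage factor CPSF2 (-0.46) also fell on the log2 scale. The call of E2F1 was lost without MET+ replicate 2 (adjusted p = 0.11, edgeR) or MET-KO replicate 2 (0.0596). Relative to chromosome 14, whose median was -0.51, YY1 stood at -0.25 and CPSF2 at 0.06.

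Of 24 tested genes whose proteins carry histones or place them in chromatin, 5 were higher and 6 lower (median -0.034 on the log2 scale). The share called, 45.8%, was below the 54.1% of all tested genes. NAP1L1, a chaperone of H2A and H2B, had 6210 and 7425 reads in MET+ and 15280 and 16428 in MET-KO libraries (log2 fold change 0.99, SE 0.09, adjusted p = 4.49e-11, edgeR with Benjamini-Hochberg adjustment). ATRX (0.66), which places H3.3 with DAXX, and the histone-binding proteins RBBP4 (0.63) and RBBP7 (0.59) rose on the log2 scale. HIRA, the chaperone that places H3.3 in active genes, had 35 and 58 reads in MET+ and 24 and 19 in MET-KO libraries (log2 fold change -1.32, SE 0.36). The importin IPO4 (-1.03), EP400 (-1.0), a remodeller that places H2A.Z and H3.3, and NPM1 (-0.71), a nucleolar chaperone, fell on the log2 scale. Relative to the medians of their chromosomes they stood at -0.52, -0.68 and -0.27. Of 11 histone genes that the name rule leaves out, 8 had no read in any library and 2 were tested. CENPA, the centromeric H3, had 239 and 311 reads against 191 and 216 (log2 fold change -0.66, SE 0.14). The linker histone gene H1FX had 1786 and 2549 reads against 2063 and 1915 (log2 fold change -0.34, SE 0.10), and its call was lost without MET+ replicate 2 (adjusted p = 0.217, edgeR) or MET-KO replicate 2 (0.0555).

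Since the cluster genes are transcribed in S phase, the S-phase genes of the Seurat package are given beside them. All 43 were tested. The calls were 6 higher and 13 lower, and their median was -0.16 on the log2 scale. That is 44.2% called, against 54.1% of all tested genes. Their sum was 2765 and 2813 CPM for MET+ against 2771 and 2761 CPM for MET-KO libraries, so these groups overlapped. GMNN, the inhibitor of replication licensing, had 336 and 389 reads in MET+ and 1549 and 1919 in MET-KO libraries (log2 fold change 2.03, SE 0.11, adjusted p = 1.84e-17, edgeR with Benjamini-Hochberg adjustment). UHRF1 (0.83) and UNG (0.61) rose, while BLM (-1.17) and WDR76 (-0.82) fell on the log2 scale. BLM and WDR76 lie on chromosome 15, whose median was -0.43. The share of cells in S phase was not measured, and its part in the histone results was not tested.

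**Figure D5:**
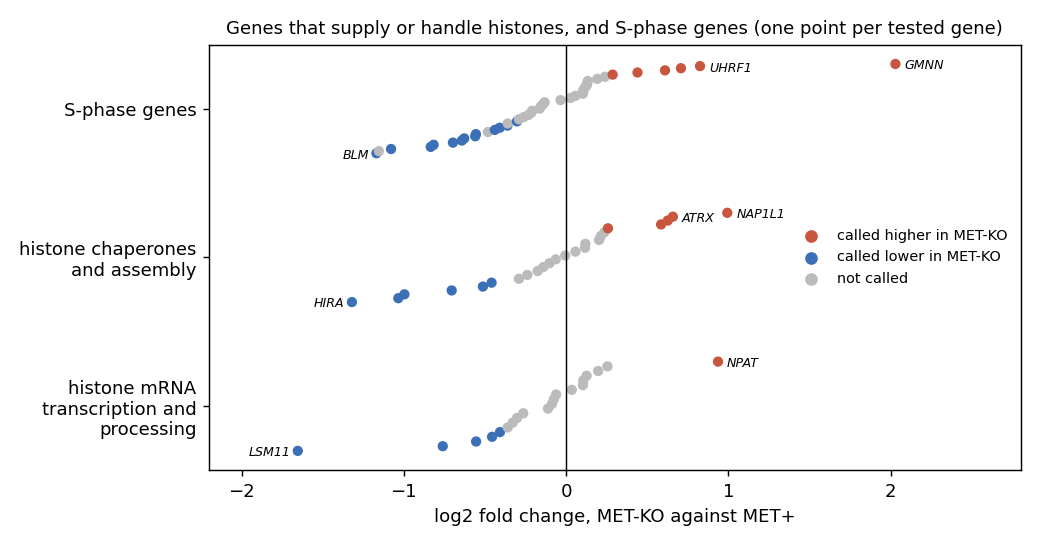
Log2 fold change of MET-KO against MET+ for the tested genes of 3 lists (20 genes of histone mRNA transcription and processing, 24 histone chaperones and assembly genes, 43 S-phase genes), with 1 point per gene, ordered by value within a list. Red points were called higher, blue points lower and grey points were not called. In each list higher and lower genes stand beside a band of genes that were not called.

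The cluster genes that were not tested add little to the sums. Of the 52 untested genes, all in the clusters, 23 had no read, and HIST1H2BL, with 4 and 10 reads in MET+ and 2 and 7 in MET-KO libraries, reached the most in 1 library. HIST1H2AE (0, 3, 6 and 9 reads in MET+ replicates 1 and 2 and MET-KO replicates 1 and 2), HIST3H2BB (3, 0, 7 and 5) and HIST1H3G (5, 4, 7 and 6) were near the limit of detection. HIST1H4I had 5 and 6 reads in MET+ and 1 and 2 in MET-KO libraries. HIST1H2AH, HIST1H2AL and HIST1H2BE reached 6 to 7 reads in a MET+ library, and HIST1H2BG reached 6 in a MET-KO library. These genes were not in the main test, and nothing is read from their low counts. HIST2H2AA3 and HIST2H2AA4, HIST2H3A and HIST2H3C, and HIST2H4A and HIST2H4B are near-identical copies, at 0 in all libraries apart from 1 read of HIST2H4A, and a counter that drops reads with several matches would not count them.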

How the data were processed

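RNA of 2 MET+ and 2 MET-KO LoVo libraries was measured with the QuantSeq 3′ mRNA-Seq kit (FWD). The deposited files hold whole read counts per Ensembl gene, made by the authors without normalization, with 58825 gene rows and 99 spike-in rows (0 reads). The submitters' processing notes name bcl2fastq, cutadapt 1.16, FastQC 0.11.7, MultiQC 1.5, STAR 2.5.4a, featureCounts 1.6.2 and DESeq2 1.18.1 with GRCh38. The annotation release, the strand setting and the treatment of reads with several matches are not given in the sources used here. Symbols and positions are from GENCODE version 29, which held 58552 of the IDs. The other 273 held at most 0.00396% of a library.

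The groups were compared in edgeR 4.0.16 (R 4.3.3) over all genes that passed filterByExpr by group (13801), with TMM scaling, the condition as the only term, the quasi-likelihood test, Benjamini-Hochberg adjustment and a threshold of 0.05. CPM are the counts divided by the TMM-scaled library size, on a common scale. A 3′ library gives about 1 fragment per transcript, so CPM was not divided by length. The SE is the absolute log2 fold change divided by the square root of F. Every tested histone gene could be named. Of the lists, the genes past the threshold with the 4 highest and 4 lowest log2 fold changes, SLBP and NPAT were named, except for some genes that are not reported here. The S-phase list was read from Seurat 5.3.0. The members and lists were chosen with earlier results of these data known. Scripts were tested on simulated data. The alternatives were other scalings, DESeq2 1.42.0 (Wald), other filters, a replicate block, a log2 fold limit of 1, thinning, leaving out each library and chromosome medians. The stem-loop pattern was GG, 3 pyrimidines, TT, a pyrimidine, T, any base, A, 3 purines and CC. Figures were drawn with matplotlib 3.10.9.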

Additional observations from a re-analysis of the deposited data

How the results depend on the processing

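Wherever it could be tested, every called histone gene kept its sign under each scaling, filter and test and when any library was left out. With at least 10 counts in every library, 7 histone genes were called higher. When calls also needed a log2 fold change of 1 or more in size, 3355 genes were called (2001 higher, 1354 lower), with 10 histone genes higher and 5 lower, 3 S-phase genes, 2 chaperone genes, 1 gene of histone mRNA processing and 0 histone genes outside the name rule. The calls of HIST3H2A and of all 5 called variant genes were lost there. Scaling by library totals alone moved the median of all genes by 0.10, the log2 ratio of the variant sum from -0.59 to -0.49, and turned HIST1H3E to 0.041, H2AFV to 0.087 and H2AFX to 0.019 on the log2 scale. H2AFV was 0.025 with at least 10 counts in every library. When each library was left out in turn, the log2 fold changes of HIST1H2BK spanned -0.38 to 0.63, of H2AFV -0.095 to 0.066 and of H2AFX -0.20 to 0.037. H2AFY was 0.037 relative to the median of chromosome 5. Of these 5 genes only H2AFY was called. The cause of these shifts was not tested. Leaving out each library in turn, where the lone library of a group is taken to vary like the other group, gave 15 to 19 histone genes called (7 to 10 higher, 8 to 10 lower) and 1 to 2 genes of the list outside the name rule. DESeq2's Wald test called 5760 genes and 16 histone genes.

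The replicate numbers did not pair the libraries (correlation of same-numbered deviations -0.0216). With the replicate number as a block, 7055 genes and 20 histone genes were called, and HIST1H2BC was lost (adjusted p = 0.0554, edgeR). The 6 called genes that lost their call when a library was left out (HIST1H2AJ, HIST1H2BC, HIST1H2BJ, HIST1H2BN, HIST1H4E and HIST1H4J) had at most 43 reads in any library. HIST1H4H, with at most 40, kept its call under each alternative in which it was tested. It passed the filter through its higher group and was not tested with at least 10 counts in every library. Its call is therefore not counted as support. In 2 alternatives added after the data were seen, the log2 ratio of the sum of shorter-end cluster genes went from 0.17 to -1.24 without HIST1H1C, and with at least 10 reads in every library the longer-end genes called higher went from 10 to 6 and the shorter-end genes called lower from 4 to 2.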
